A study of Mus musculus with 15 samples.

Results

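Day 8 of a chemical induction of mouse astrocytes toward neurons was compared with day 4, using 3 RNA-seq libraries of each day (D8 and D4, replicates 1 to 3), which are 6 of the 15 libraries of the series. Every gene listed at 1 FPKM or more (fragments per kilobase of transcript, scaled to the library's total) in at least 3 of the 6 libraries entered the comparison. These were 12858 of 24346 genes. Another 11488 genes fell short of that level, 5879 of them listed at 0 in all 6 libraries.

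All cells came from the brain of C57BL/6 mice, and all libraries were made from total RNA and read in pairs of 150 bases. The D0 group is astrocytes before induction, D4, D8 and D16 are cells labelled chemically induced neurons after 4, 8 and 16 days, and PN is primary neurons, each with 3 libraries. D8 and D4 therefore share strain, tissue and the label of chemical induction, and differ in the labelled days of it. Whether compounds and medium stayed the same between those days is not given. The labels name neither the compounds, nor the age of the mice, nor how the astrocytes were purified, and no untreated culture of the same age was analysed here.

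Astrocytes in culture divide and take on features of reactive glia, whereas neurons have permanently left the cell cycle. In cells that stop dividing, the DREAM complex represses the genes of the G2 and M phases through a promoter element called the cell cycle genes homology region (CHR), and the genes of S phase are controlled through E2F sites. Neurons fuse transmitter vesicles with SNARE proteins, and many also pack peptides with granins into dense-core granules. The Hox genes, homeobox transcription factors in 4 chromosomal clusters named A to D, set position along the body axis and are normally silent in the forebrain.

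The 6 libraries were alike in breadth. Between 12340 and 12907 genes reached 1 FPKM in each, and log2 levels correlated at 0.973 to 0.985 within a day and at 0.948 to 0.977 between days. The files give no read counts. From the smallest values of genes with little signal, relative depth was estimated at 1.47, 2.36 and 0.993 in D8 replicates 1, 2 and 3 and at 1, 2.27 and 0.993 in D4 replicates 1, 2 and 3. Replicate 2 was therefore the deepest library of each day. The labels do not say whether replicates were separate cultures, so p-values measure a spread between libraries that may be technical. That spread was estimated within the groups of all 15 libraries. Scatter within D0, D16 and PN therefore also enters the standard errors and p-values, except where the 6 libraries were fitted alone.

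The labelled cell types were set against their defining markers. Among 8 neuronal markers, Snap25, a SNARE protein of the presynaptic membrane, rose on D8, with a mean of 134 FPKM on D8 and 62.9 FPKM on D4. Syp, a synaptic vesicle protein, averaged 145 FPKM on D8 and 77.2 FPKM on D4 and was not called (log2 change 0.90, limma adjusted p = 0.058). Tubb3, the neuronal beta tubulin, averaged 174 FPKM on D8 and 122 FPKM on D4 (limma adjusted p = 0.66), and Map2, a dendritic microtubule protein, 24.9 FPKM on D8 and 25.7 FPKM on D4 (limma adjusted p = 0.96). Fitted alone with pairing, the 6 libraries gave limma adjusted p of 0.0017 for Syp, 0.035 for Tubb3 and 0.80 for Map2. None was called there, since their changes were under 1. Dcx, a marker of young migrating neurons, stood near 0, at means of 0.182 FPKM on D8 and 0.137 FPKM on D4, against 133 FPKM in PN. Of 7 astrocyte markers, Gfap fell; Aldh1l1, a folate enzyme used to mark astrocytes, averaged 17.9 FPKM on D8 and 17.4 FPKM on D4 and was not called (limma adjusted p = 0.98). The other 5 markers had negative changes and were not called either. The water channel Aqp4 (log2 change -0.79), the gap junction protein Gja1 (log2 change -0.73) and the glial factor Sox9 (log2 change -0.70) were lower in every D8 library than in any D4 library, and the glutamate transporters Slc1a3 (log2 change -1.01) and Slc1a2 (log2 change -0.38) overlapped. For Aqp4 and Sox9, limma adjusted p was 0.030 and 0.024 with the 6 libraries fitted alone with pairing. In bulk RNA, fewer cells of a type and less RNA per cell cannot be told apart, here and in every result below.

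Markers of other brain cells were mostly below the level needed for a test. Of 17 oligodendrocyte lineage markers 6 were tested, and their list summed to 45.7 to 62.7 FPKM on D8 and 74.5 to 131 FPKM on D4, with 1 marker at 0 in all 6 libraries. Olig1, a transcription factor of that lineage, fell to 4.25, 7.38 and 10.8 FPKM in the D8 libraries, against 18.0, 36.5 and 52.0 FPKM in the D4 libraries (log2 change -2.06 ± 0.38, adjusted p = 0.0067). The 17 microglial markers summed to 348 to 799 FPKM on D8 and 339 to 559 FPKM on D4, and 3 of them were at 0 throughout. The 11 endothelial markers summed to 7.60 to 18.8 FPKM on D8 and 8.93 to 12.9 FPKM on D4, the 13 pericyte and fibroblast markers to 9.73 to 29.1 FPKM on D8 and 25.3 to 38.6 FPKM on D4, and the 13 ependymal markers to 8.26 to 10.2 FPKM on D8 and 10.6 to 18.5 FPKM on D4. No microglial, endothelial, pericyte or ependymal marker was called. The part of other cells in the results below was not tested.

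Between the days, 69 genes rose on D8 (0.537% of those tested) and 203 fell (1.58%), together 2.12%. A gene was called at a limma adjusted p under 0.05 and a change of at least 1 on the log2(FPKM + 1) scale. All log2 changes below are D8 minus D4 on that scale with the standard error, which understates the change of genes near 1 FPKM. Where leaving out a library ended a call, the libraries are named with the highest adjusted p that leaving out any 1 library gave. The median change over all tested genes was 0.02 and the median standard error 0.20. Pairing libraries by replicate number in the fit gave 78 higher (0.607%) and 206 lower (1.6%), and the 6 libraries fitted alone with pairing gave 103 higher (0.801%) and 293 lower (2.28%). All 272 called genes moved the same way in all 3 pairs of libraries with the same replicate number. The D8 and D4 values of the 69 genes that rose did not overlap, and those of 202 of the 203 that fell did not either. Without overlap, any pairing of the libraries gives the same direction, so the agreement of the pairs adds nothing for these genes. Over all tested genes, every D8 library stood above every D4 library in 11.6% and below it in 11.9%.

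The genes that fell were typically low on D8. Their median mean level was 1.22 FPKM on D8 and 6.40 FPKM on D4, and 143 tested genes reached 1 FPKM in all D4 libraries and in no D8 library, 82 of them called lower. The opposite pattern, 1 FPKM in all D8 libraries and in no D4 library, was found for 24 tested genes, of which 2 were called. The genes that rose had a median mean level of 17.2 FPKM on D8 and 6.03 FPKM on D4, so most were already present on D4. Changes of at least 2 on the log2 scale numbered 5 among the genes that rose and 29 among those that fell. The counts varied with the libraries used: without D4 replicate 2 they were 41 higher and 129 lower, without D4 replicate 3 they were 41 higher and 152 lower, and without D8 replicate 3 they were 45 higher and 156 lower. D4 replicate 2 was the highest D4 library for 151 of the 203 genes that fell, and D4 replicate 1 the lowest for 137. The part of depth in these counts was not tested.

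**Figure D1:**
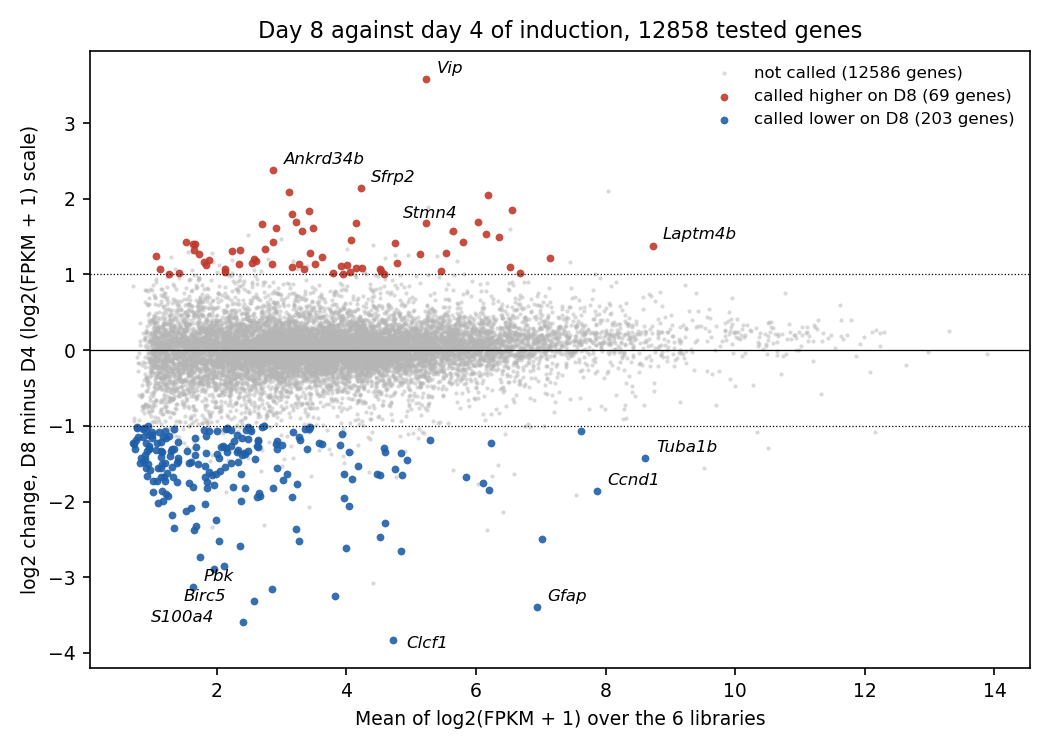
Log2 change (D8 minus D4, log2(FPKM + 1) scale, vertical axis) against mean log2 level of the 6 libraries (horizontal axis) for 12858 genes, with genes called higher and lower on D8 in colour. The 203 genes that fell outnumber the 69 that rose and reach larger changes, down to -3.83 for Clcf1, against 3.58 for Vip.

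Of the 43 gene lists examined, that of mitosis had the most genes lower. Of 69 tested genes of mitosis and the G2/M transition, 51 fell (73.9%, against 1.58% of all tested genes) and 0 rose. The list's median change was -1.33, against 0.02 over all genes. All D8 libraries lay below all D4 libraries for 60 of the 69 (87.0%, against 11.9% of all tested genes). Of the 69 genes 37 reached 1 FPKM in every D4 and no D8 library. They could enter the test only by being lower on D8 without overlap, and 33 of the 51 were among these. Of the other 32 tested genes 18 fell, 0 rose, 23 were lower on D8 without overlap, and the median change was -1.13. The 51 genes had a median of 0.456, 0.390 and 0.344 FPKM in D8 replicates 1, 2 and 3, against 3.42, 5.44 and 3.29 FPKM in D4 replicates 1, 2 and 3. Mean levels on D8 were under 1 FPKM for 35 of the 51. Without D4 replicate 2, the highest D4 library for 43 of the 51, the count was 44.

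Entry into and exit from mitosis were both covered. Ccnb1, the cyclin that with Cdk1 drives entry (chromosome 13, 100778739 to 100786486, a RefSeq gene span on GRCm38.p6 as are all below), was listed at 0.244, 0.225 and 0.419 FPKM in the D8 libraries, against 6.11, 8.41 and 8.54 FPKM in the D4 libraries (log2 change -2.74 ± 0.20, adjusted p = 2.9e-06). Cdc20, the activator of the anaphase-promoting complex (chromosome 4, 118432901 to 118437343), stood at 0.603, 0.506 and 0.726 FPKM on D8, against 7.11, 16.9 and 9.91 FPKM on D4 (log2 change -2.86 ± 0.28, adjusted p = 5.0e-05). Ube2c, the ubiquitin-conjugating enzyme of the same complex (chromosome 2, 164769929 to 164772902), fell to 1.73, 1.31 and 1.28 FPKM on D8, against 18.5, 18.8 and 25.3 FPKM on D4 (log2 change -3.15 ± 0.21, adjusted p = 1.7e-06). All 3 genes were low in every D8 library, with no overlap between the days. Ccnb1, Cdc20 and Ube2c averaged 72.1, 93.6 and 148 FPKM in D0, above their D4 means. In PN they averaged 8.23, 8.92 and 14.8 FPKM, above their D8 means of 0.296, 0.612 and 1.44 FPKM. Birc5, a subunit of the chromosomal passenger complex (chromosome 11, 117849237 to 117855743), was at 1.51, 1.17 and 0.251 FPKM on D8, against 14.4, 30.1 and 12.8 FPKM on D4 (log2 change -3.31 ± 0.31, adjusted p = 3.7e-05). Top2a, the topoisomerase that separates sister chromatids (chromosome 11, 98992947 to 99024199), was at 0.457, 0.516 and 0.322 FPKM on D8, against 7.87, 14.9 and 7.37 FPKM on D4 (log2 change -2.89 ± 0.26, adjusted p = 2.5e-05). In both, the highest D8 value lay far below the lowest D4 value, and D4 replicate 2 was the highest library. Pbk, a mitotic kinase (chromosome 14, 65805911 to 65817822), fell to near 0, at 0.120, 0.0371 and 0 FPKM on D8, against 7.37, 11.3 and 6.65 FPKM on D4 (log2 change -3.13 ± 0.19, adjusted p = 5.8e-07). The proliferation marker Mki67 averaged 0.169 FPKM on D8 and 4.40 FPKM on D4 (log2 change -2.17 ± 0.26, adjusted p = 0.00025). These 7 calls held in every alternative that tested the gene, which is written below as holding throughout.

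Replication genes fell as well. Of 37 tested genes of replication and the G1/S transition, 12 fell (32.4%, against 1.58% of all tested genes) and 0 rose, with a median change of -0.72. D8 lay below D4 without overlap for 28 (75.7%, against 11.9% of all tested genes). Of the 37 genes 7 reached 1 FPKM in every D4 and no D8 library, which fixed their direction, and 6 of them were among the 12. Of the other 30 genes 6 fell and 21 were lower on D8 without overlap. The difference between the shares of the mitosis and replication lists was not tested. The 12 genes had medians of 0.727, 1.08 and 0.762 FPKM in D8 replicates 1, 2 and 3, against 3.96, 9.48 and 5.61 FPKM in D4 replicates 1, 2 and 3. D4 replicate 2 was the highest D4 library for all 12, and without it 8 were called. The replicative helicase subunits Mcm3, Mcm5 and Mcm6 all fell. Mcm5 (chromosome 8, 75109468 to 75128439) was listed at 0.474, 0.373 and 0.312 FPKM on D8, against 3.88, 9.65 and 6.06 FPKM on D4 (log2 change -2.37 ± 0.29, adjusted p = 0.00025), with no overlap. Mcm3 averaged 0.728 FPKM on D8 and 9.28 FPKM on D4 (log2 change -2.52 ± 0.23, adjusted p = 2.4e-05), and Mcm6 3.81 FPKM on D8 and 14.3 FPKM on D4 (log2 change -1.64 ± 0.25, adjusted p = 0.0015). For nucleotide supply, Rrm2, a subunit of ribonucleotide reductase, fell to 8.49, 9.67 and 12.2 FPKM in the D8 libraries, against 43.4, 65.2 and 51.6 FPKM in the D4 libraries (log2 change -2.28 ± 0.20, adjusted p = 2.2e-05). Tk1, thymidine kinase, averaged 0.388 FPKM on D8 and 5.62 FPKM on D4 (log2 change -2.13 ± 0.31, adjusted p = 0.0011), and Cdc45, a partner of the Mcm helicase, 0.985 FPKM on D8 and 5.81 FPKM on D4 (log2 change -1.74 ± 0.23, adjusted p = 0.00061). All 6 of these calls held throughout.

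The brakes of the cell cycle gave no calls in the main fit. Of 34 tested cell cycle inhibitors and p53 targets, 0 rose and 0 fell by limma, their median change was 0.04, and 3 higher and 3 lower had an unadjusted p under 0.05. Pairing gave calls for 2 genes chosen after their values were seen. Gadd45b (log2 change -1.35, adjusted p = 0.059) was called lower with it (limma adjusted p = 0.045). Cdkn2a (log2 change 1.01, adjusted p = 0.094) was called higher only with the 6 libraries fitted alone with pairing (limma adjusted p = 0.0027). Cdkn1a, the p21 inhibitor, stood at 332, 322 and 328 FPKM on D8, against 228, 192 and 232 FPKM on D4, above it in every library but with a change of 0.59 (limma adjusted p = 0.12). Ccnd1, the cyclin of early G1, did fall, to 95.8, 113 and 163 FPKM on D8, against 388, 447 and 501 FPKM on D4 (log2 change -1.86 ± 0.19, adjusted p = 5.2e-05). It stayed far above the mitotic genes in level on D8, and the days did not overlap.

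Promoters of these genes were read from RefSeq windows on GRCm38.p6, 250 bases before to 50 bases after each annotated start. Of the 51 mitosis genes that fell, 39 had a window (40 windows in all), and 30 of the 40 (75%) held the CHR letters TTTGAA on either strand. The same letters were in 11.1% of 12601 windows of tested genes and in 17.9% of all 32851 windows. Mitosis genes that were not called held them in 11 of 16 windows (68.8%). The CCAAT letters, the binding sequence of NF-Y, were in 75% of the 40 windows, in 81.3% of the 16, and in 37.5% of the windows of tested genes. Replication genes that fell held CHR letters in 1 of 9 windows and E2F letters (TTTGGCGC, TTTGCCGC, TTTCGCGC or TTTCCCGC, either strand) in 3 of 9 (33.3%), against 3.85% of windows of tested genes. Replication genes that were not called held E2F letters in 27.6% of 29 windows. Genes called higher held CHR letters in 3 of 63 windows (4.76%). A match of letters is not a binding site, and the motifs were chosen with the results known.

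The windows below show how these elements lie in genes picked as examples that hold them, with 3 mitotic genes first and the helicase gene Mcm5 last. Other genes with large falls lacked them. The window of Birc5 held neither CHR nor CCAAT letters, and that of Ccnb1 held CCAAT but no CHR letters. They are written in the direction of transcription, and capitals mark CHR and CCAAT letters, or E2F and CCAAT letters in Mcm5. The positions are chr2:164769679-164769978 on the plus strand for Ube2c, chr11:99024140-99024439 on the minus strand for Top2a, chr4:118437294-118437593 on the minus strand for Cdc20, and chr8:75109259-75109558 on the plus strand for Mcm5.
Ube2c: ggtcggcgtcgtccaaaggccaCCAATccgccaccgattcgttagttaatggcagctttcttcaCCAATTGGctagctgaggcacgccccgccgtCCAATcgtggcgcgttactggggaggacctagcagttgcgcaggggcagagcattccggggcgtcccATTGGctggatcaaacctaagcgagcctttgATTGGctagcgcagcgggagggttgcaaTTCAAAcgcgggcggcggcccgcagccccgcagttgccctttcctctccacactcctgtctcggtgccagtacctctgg
Top2a: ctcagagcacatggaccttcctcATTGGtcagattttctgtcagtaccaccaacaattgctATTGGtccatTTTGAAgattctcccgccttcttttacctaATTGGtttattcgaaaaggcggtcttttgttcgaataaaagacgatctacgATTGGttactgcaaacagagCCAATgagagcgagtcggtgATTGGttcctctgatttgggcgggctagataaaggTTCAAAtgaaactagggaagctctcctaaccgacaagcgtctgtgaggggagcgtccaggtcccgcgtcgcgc
Cdc20: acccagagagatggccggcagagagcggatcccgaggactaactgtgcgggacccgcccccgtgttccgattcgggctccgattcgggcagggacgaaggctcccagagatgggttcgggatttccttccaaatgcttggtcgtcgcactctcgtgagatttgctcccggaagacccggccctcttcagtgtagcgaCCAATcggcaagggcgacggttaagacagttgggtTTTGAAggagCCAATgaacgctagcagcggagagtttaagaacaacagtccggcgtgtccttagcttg
Mcm5: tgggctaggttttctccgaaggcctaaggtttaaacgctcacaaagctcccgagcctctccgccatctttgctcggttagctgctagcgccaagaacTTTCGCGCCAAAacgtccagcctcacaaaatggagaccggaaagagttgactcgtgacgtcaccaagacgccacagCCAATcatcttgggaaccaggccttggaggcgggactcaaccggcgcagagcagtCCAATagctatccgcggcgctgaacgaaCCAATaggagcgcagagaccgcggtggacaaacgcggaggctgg
The CHR letters closest to the start began 29 bases before it in Ube2c, 23 in Top2a and 18 in Cdc20. A CHR match beginning 1 to 50 bases before the start was found in 25% of the 40 windows and in 1.51% of windows of tested genes. It was found in as large a share, 25%, of the 16 windows of mitosis genes that were not called, and in 7.02% of the 114 windows of the other genes that fell. In Ube2c a CCAAT at 186 bases and its reverse at 183 share letters, and in Mcm5 the E2F matches at 153 and 149 bases overlap on opposite strands.

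Genes of reactive and inflammatory glia fell too. Of 41 tested genes of reactive astrocytes, 9 fell (21.95%, against 1.58% of all tested genes) and 0 rose, with a median change of -0.78. D8 lay below D4 without overlap for 23 of the 41 (56.1%, against 11.9% of all tested genes). The count was 4 without D4 replicate 2 and 5 without D8 replicate 2, D8 replicate 3 or D4 replicate 3. Clcf1, a cytokine of the interleukin 6 family (chromosome 19, 4214238 to 4223505), had the largest fall of any tested gene: it stood at 6.52, 2.84 and 11.1 FPKM on D8, against 68.1, 74.0 and 191 FPKM on D4 (log2 change -3.83 ± 0.45, adjusted p = 0.00021). All D8 values lay far below the lowest D4 value. S100a4, a calcium-binding protein of reactive and motile cells (chromosome 3, 90603770 to 90606045), was at 0.675, 1.11 and 0 FPKM on D8, against 20.5, 19.0 and 13.5 FPKM on D4 (log2 change -3.59 ± 0.35, adjusted p = 5.0e-05). Its relative S100a6 fell to 52.7, 32.8 and 31.4 FPKM on D8, against 127, 155 and 136 FPKM on D4 (log2 change -1.85 ± 0.35, adjusted p = 0.0074). These 3 calls held throughout. Complement C3, expressed by one reactive state, averaged 1.16 FPKM on D8 and 5.85 FPKM on D4 (log2 change -1.65 ± 0.33, adjusted p = 0.011), a call that was lost in 4 of 14 alternatives, among them without D8 replicate 3 or D4 replicate 2 or 3, with adjusted p up to 0.061. Emp1, a membrane protein, averaged 3.48 FPKM on D8 and 12.5 FPKM on D4 (log2 change -1.56 ± 0.31, adjusted p = 0.010) and lost the call without D4 replicate 2 (limma adjusted p = 0.066). In D0, C3 averaged 1.51 FPKM, below its D4 mean. Clcf1 averaged 144 FPKM, S100a4 1141 FPKM, S100a6 2027 FPKM and Emp1 270 FPKM in D0, above their D4 means. Vim, the other main intermediate filament of these cells, stayed abundant and was not called, though D8 lay below D4 in every library, at 907, 965 and 801 FPKM on D8, against 1813, 1742 and 2108 FPKM on D4 (log2 change -1.08 ± 0.54, adjusted p = 0.39). With the 6 libraries fitted alone with pairing, Vim was called lower (limma adjusted p = 0.019), and 15 genes of the list were.

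Of 33 tested astrocyte identity genes 4 fell, 0 rose, and the median change was -0.38; 2 were called without D8 replicate 3, D4 replicate 2 or D4 replicate 3. Gfap, the astrocyte intermediate filament (chromosome 11, 102887336 to 102897200), fell to 39.2, 31.2 and 40.9 FPKM in the D8 libraries, against 417, 349.8 and 429 FPKM in the D4 libraries (log2 change -3.39 ± 0.62, adjusted p = 0.0057). The days were widely apart in all libraries, and leaving out any 1 library kept the adjusted p between 0.017 and 0.030; the call was lost with a pseudocount of 0.1. Cbs, an enzyme of cysteine synthesis, was at 10.9, 18.8 and 18.1 FPKM on D8, against 30.0, 63.5 and 67.9 FPKM on D4 (log2 change -1.65 ± 0.28, adjusted p = 0.0035). Mlc1, a membrane protein of astrocyte endfeet, averaged 0.861 FPKM on D8 and 9.09 FPKM on D4 (log2 change -2.24 ± 0.46, adjusted p = 0.012), and its binding partner Hepacam 0.351 FPKM on D8 and 2.07 FPKM on D4 (log2 change -1.17 ± 0.28, adjusted p = 0.031). The call of Mlc1 was lost in 4 of 14 alternatives, without D8 replicate 1 or 3 or D4 replicate 2 or 3, with adjusted p up to 0.073. The call of Hepacam was lost in 7 of 14 alternatives, among them without D8 replicate 2 or 3 or D4 replicate 1, 2 or 3, with adjusted p up to 0.17. In D0, Cbs averaged 4.80 FPKM, below both days. Gfap averaged 560 FPKM, Mlc1 218 FPKM and Hepacam 44.8 FPKM in D0, above both days. The glutamate transporter Slc1a3 was not called, at 2.40, 3.75 and 1.496 FPKM on D8, against 3.72, 9.82 and 5.44 FPKM on D4 (log2 change -1.01 ± 0.39, adjusted p = 0.23), nor was Sox9, at 9.63, 5.32 and 7.21 FPKM on D8, against 10.6, 11.5 and 15.2 FPKM on D4 (log2 change -0.70 ± 0.28, adjusted p = 0.24). With the 6 libraries fitted alone with pairing, Slc1a3 was called lower (limma adjusted p = 0.0057), and 7 genes of the list were.

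**Figure D2:**
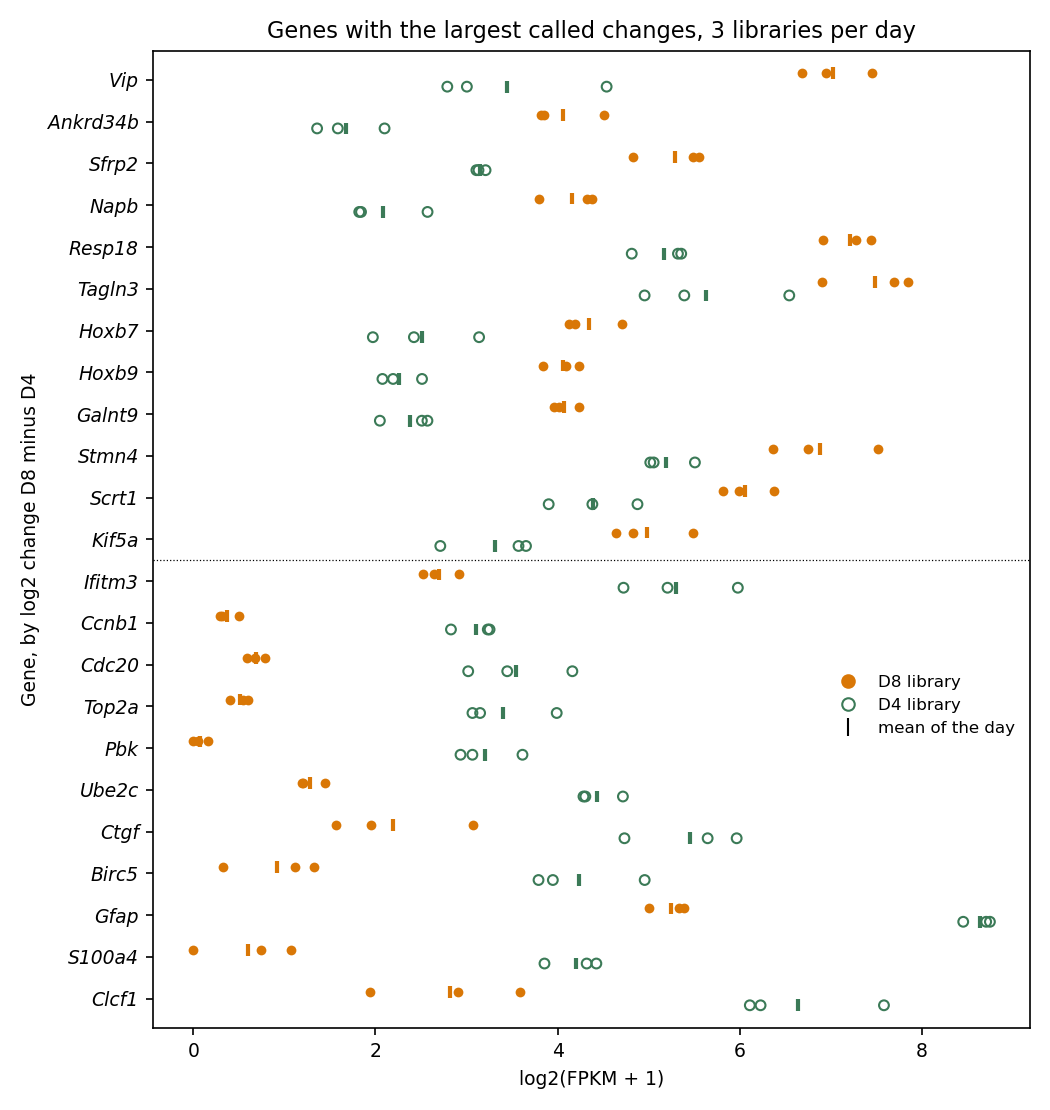
Log2(FPKM + 1) (horizontal axis) of the 12 genes with the largest called rise and 11 of the 12 with the largest called fall, 1 point per library (filled, D8; open, D4) and a tick for the mean of each day. The days are separated for every gene shown, which the choice of genes required.

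Receptors of the interleukin 6 pathway were also among the genes that fell. Of 26 tested genes of that pathway 3 fell, with a median change of -0.13: Clcf1 itself, the oncostatin receptor Osmr (9.42 FPKM on D8 and 26.6 FPKM on D4, log2 change -1.35 ± 0.29, adjusted p = 0.018) and the interleukin 6 receptor Il6ra (8.80 FPKM on D8 and 22.2 FPKM on D4, log2 change -1.25 ± 0.29, adjusted p = 0.027). The call of Osmr was lost in 4 of 15 alternatives, among them without D8 replicate 2 or 3 or D4 replicate 2, with adjusted p up to 0.11. The call of Il6ra was lost in 7 of 15 alternatives, among them without D8 replicate 1, 2 or 3 or D4 replicate 2 or 3, with adjusted p up to 0.13. In D0, Osmr averaged 12.6 FPKM and Il6ra 5.21 FPKM, below their D4 means, and Clcf1 144 FPKM, above its D4 mean. In the NF-kB list, 3 of 28 tested genes fell (10.7%, against 1.58% of all tested genes) and 0 rose. Cd40, chosen after its values were seen, had a log2 change of 1.60 and was not called (limma adjusted p = 0.081). Pairing by replicate number gave it a call higher on D8 (limma adjusted p = 0.0069). Vcam1, an adhesion molecule, was at 1.92, 2.22 and 2.31 FPKM on D8, against 8.10, 11.4 and 14.5 FPKM on D4 (log2 change -1.94 ± 0.35, adjusted p = 0.0057), a call that held throughout. The prostaglandin synthase Ptgs2 averaged 4.21 FPKM on D8 and 10.8 FPKM on D4 (log2 change -1.20 ± 0.26, adjusted p = 0.016), and the chemokine Cxcl2 1.19 FPKM on D8 and 3.83 FPKM on D4 (log2 change -1.15 ± 0.29, adjusted p = 0.038). The call of Ptgs2 was lost in 4 of 15 alternatives, among them without D8 replicate 2 or D4 replicate 1 or 3, with adjusted p up to 0.075. The call of Cxcl2 was lost in 7 of 14 alternatives, among them without D8 replicate 2 or 3 or D4 replicate 1 or 3, with adjusted p up to 0.16. In D0, Ptgs2 averaged 5.41 FPKM and Cxcl2 0.496 FPKM, below their D4 means, and Vcam1 102 FPKM, above its D4 mean. Interferon-stimulated and MHC class I genes gave 0 calls among 26 by limma, with 0 higher and 3 lower at an unadjusted p under 0.05. Ifitm3, an antiviral membrane protein outside that list and with close paralogs, stood at 6.55, 5.25 and 4.76 FPKM on D8, against 25.4, 62.1 and 35.9 FPKM on D4 (log2 change -2.61 ± 0.55, adjusted p = 0.014). The call of Ifitm3 was lost in 4 of 15 alternatives, without D8 replicate 2 or 3 or D4 replicate 2 or 3, with adjusted p up to 0.086.

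Matrix, mechanical and growth factor genes included several large falls whose calls depended on single libraries. The extracellular matrix list had 4 of 34 tested genes lower and a median change of -0.47, but 0 calls without D8 replicate 2, D4 replicate 2 or D4 replicate 3, 1 without D8 replicate 3, 2 without D8 replicate 1, and 11 when the 6 libraries were fitted alone with pairing. Tnc, a glycoprotein of glial scars, averaged 32.6 FPKM on D8 and 109.7 FPKM on D4 (log2 change -1.68 ± 0.42, adjusted p = 0.039), and it was also the 1 gene lower among 26 tested progenitor genes. The call of Tnc was lost in 8 of 15 alternatives, among them without D8 replicate 1, 2 or 3 or D4 replicate 2 or 3, with adjusted p up to 0.20. Among 30 tested YAP and TEAD targets 2 fell, and 5 with the 6 libraries fitted alone with pairing. Amotl2, an inhibitor of YAP, was at 4.52, 1.90 and 2.69 FPKM on D8, against 11.04, 13.7 and 13.6 FPKM on D4 (log2 change -1.82 ± 0.28, adjusted p = 0.0016), and kept its call throughout. Ctgf, a secreted matrix protein, stood at 7.38, 1.96 and 2.87 FPKM on D8, against 25.6, 49.1 and 61.5 FPKM on D4 (log2 change -3.25 ± 0.81, adjusted p = 0.038). Its values did not overlap, but pairing by replicate number gave an adjusted p of 0.064, and the call was lost in 9 of 15 alternatives, among them without D8 replicate 1, 2 or 3 or D4 replicate 2 or 3, with adjusted p up to 0.16. Among 30 tested actin and SRF targets 1 fell, and 7 with the 6 libraries fitted alone with pairing. Among 32 BMP and TGF-beta genes 2 fell, among them Ltbp1, which binds latent TGF-beta (3.72 FPKM on D8 and 8.58 FPKM on D4, log2 change -1.004 ± 0.25, adjusted p = 0.036; 0.054 with pairing). The call of Ltbp1 was lost in 10 of 15 alternatives, among them without D8 replicate 1, 2 or 3 or D4 replicate 2 or 3, with adjusted p up to 0.19. The elastin crosslinker Loxl1 averaged 3.55 FPKM on D8 and 13.9 FPKM on D4 (log2 change -1.71 ± 0.38, adjusted p = 0.021). The call of Loxl1 was lost in 6 of 15 alternatives, among them without D8 replicate 2 or 3 or D4 replicate 2 or 3, with adjusted p up to 0.10. The laminin chain Lama4 averaged 1.84 FPKM on D8 and 6.91 FPKM on D4 (log2 change -1.49 ± 0.36, adjusted p = 0.030). The call of Lama4 was lost in 9 of 15 alternatives, among them without D8 replicate 2 or 3 or D4 replicate 1, 2 or 3, with adjusted p up to 0.14. The collagen Col12a1 averaged 0.635 FPKM on D8 and 3.46 FPKM on D4 (log2 change -1.42 ± 0.35, adjusted p = 0.036; 0.058 with pairing). The call of Col12a1 was lost in 9 of 14 alternatives, among them without D8 replicate 1, 2 or 3 or D4 replicate 2 or 3, with adjusted p up to 0.18. Hbegf, a ligand of the EGF receptor, was the 1 call among 32 neurotrophic genes, at 34.8, 30.9 and 45.1 FPKM on D8, against 88.6, 112 and 197 FPKM on D4 (log2 change -1.75 ± 0.30, adjusted p = 0.0034), and held throughout.

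In the early-response and stress lists some genes fell and 0 rose. Called lower were 7.32% of immediate-early and cAMP-responsive, 2.63% of integrated stress and ER stress, and 6.45% of heat shock and antioxidant genes. The share over all tested genes was 1.58%. Of 41 tested immediate-early and cAMP-responsive genes 3 fell, with a median change of -0.26. D8 lay below D4 without overlap for 12 of the 41 (29.3%, against 11.9% of all tested genes). Dusp5, a phosphatase that limits ERK, was at 11.7, 8.01 and 16.8 FPKM on D8, against 26.0, 34.3 and 62.4 FPKM on D4 (log2 change -1.63 ± 0.31, adjusted p = 0.0073), and held throughout. Maff, a small Maf factor, averaged 53.8 FPKM on D8 and 346 FPKM on D4 (log2 change -2.50 ± 0.58, adjusted p = 0.025), and Arc, a synaptic capsid-like protein, 2.86 FPKM on D8 and 7.51 FPKM on D4 (log2 change -1.18 ± 0.29, adjusted p = 0.036). The call of Maff was lost in 7 of 15 alternatives, among them without D8 replicate 1, 2 or 3 or D4 replicate 2 or 3, with adjusted p up to 0.14. The call of Arc was lost in 8 of 15 alternatives, among them without D8 replicate 1 or 2 or D4 replicate 2 or 3, with adjusted p up to 0.17. Slc7a11, the cystine transporter, fell to 3.03, 4.59 and 1.95 FPKM on D8, against 8.46, 72.1 and 17.1 FPKM on D4 (log2 change -2.52 ± 0.55, adjusted p = 0.017). The call of Slc7a11 was lost in 3 of 15 alternatives, among them without D8 replicate 1 or 3, with adjusted p up to 0.088. It was the 1 call among 38 integrated stress and ER stress genes and 1 of 2 among 31 heat shock and antioxidant genes, with Osgin1, an oxidative stress gene (1.004 FPKM on D8 and 4.95 FPKM on D4, log2 change -1.51 ± 0.34, adjusted p = 0.023). The call of Osgin1 was lost in 7 of 14 alternatives, among them without D8 replicate 2 or 3 or D4 replicate 1 or 2, with adjusted p up to 0.14.

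On the neuronal side, most genes of transmitter release had small positive changes. Of 47 tested presynaptic genes 7 rose (14.9%, against 0.537% of all tested genes) and 0 fell, 45 had a change above 0, and the median change was 0.52. D8 lay above D4 without overlap for 24 of the 47 (51.1%, against 11.6% of all tested genes). The count was 3 without D4 replicate 2 or D4 replicate 3 and 4 without D8 replicate 1 or D8 replicate 3. Cplx1, complexin 1, a clamp on SNARE fusion (chromosome 5, 108518554 to 108550027), rose to 88.4, 81.9 and 87.6 FPKM in the D8 libraries, against 34.3, 27.5 and 23.6 FPKM in the D4 libraries (log2 change 1.58 ± 0.21, adjusted p = 0.00058). Napb, the neuronal SNAP that recycles SNARE complexes (chromosome 2, 148693985 to 148732425), was at 19.8, 19.0 and 12.9 FPKM on D8, against 4.95, 2.59 and 2.54 FPKM on D4 (log2 change 2.08 ± 0.27, adjusted p = 0.00047). Both were higher in every D8 library and kept their calls throughout. The synaptotagmin Syt2, a fast calcium sensor, was at 6.38, 2.64 and 3.89 FPKM on D8, against 2.03, 0.547 and 0.510 FPKM on D4 (log2 change 1.40 ± 0.27, adjusted p = 0.0082). The call of Syt2 was lost in 2 of 14 alternatives, without D4 replicate 2 or 3, with adjusted p up to 0.054. Snap25 was at 145, 123 and 135 FPKM on D8, against 75.2, 52.3 and 61.1 FPKM on D4 (log2 change 1.09 ± 0.27, adjusted p = 0.035). The call of Snap25 was lost in 9 of 15 alternatives, among them without D8 replicate 1, 2 or 3 or D4 replicate 2 or 3, with adjusted p up to 0.16. The vesicle glycoprotein Sv2a averaged 21.5 FPKM on D8 and 9.40 FPKM on D4 (log2 change 1.11 ± 0.24, adjusted p = 0.018). The call of Sv2a was lost in 5 of 15 alternatives, among them without D8 replicate 1 or 3 or D4 replicate 2 or 3, with adjusted p up to 0.091. D4 replicate 1 was the highest D4 library for 33 of the 47 genes and D4 replicate 2 for 7. Syn1, synapsin 1, was not called, at 38.0, 23.9 and 41.0 FPKM on D8, against 31.1, 18.8 and 30.0 FPKM on D4 (log2 change 0.35 ± 0.26, adjusted p = 0.62).

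Of 55 tested structural and other pan-neuronal genes 5 rose (9.09%) and 0 fell, with a median change of 0.49. The count was 2 without D8 replicate 3, D4 replicate 2 or D4 replicate 3 and 3 without D8 replicate 1 or D8 replicate 2. Kif5a, the neuronal kinesin heavy chain, was at 43.9, 27.4 and 23.9 FPKM on D8, against 11.6, 10.9 and 5.56 FPKM on D4 (log2 change 1.67 ± 0.29, adjusted p = 0.0035). Stmn4, a stathmin that regulates microtubules, was at 81.7, 182 and 107 FPKM on D8, against 31.4, 44.5 and 32.2 FPKM on D4 (log2 change 1.69 ± 0.27, adjusted p = 0.0019). Both calls held throughout, with the days apart in every library. Tagln3, a neuronal calponin-like protein, was at 119, 229.6 and 206 FPKM on D8, against 92.3, 30.0 and 41.0 FPKM on D4 (log2 change 1.85 ± 0.48, adjusted p = 0.047), pairing gave an adjusted p of 0.072, and the call was lost in 9 of 15 alternatives, among them without D8 replicate 1, 2 or 3 or D4 replicate 2 or 3, with adjusted p up to 0.22. Its D4 replicate 1 stood well above the other D4 libraries. Stmn3 averaged 215 FPKM on D8 and 91.8 FPKM on D4 (log2 change 1.22 ± 0.27, adjusted p = 0.020), and L1cam, an axonal adhesion molecule, 8.60 FPKM on D8 and 3.27 FPKM on D4 (log2 change 1.17 ± 0.30, adjusted p = 0.043). The call of Stmn3 was lost in 5 of 15 alternatives, without D8 replicate 1, 2 or 3 or D4 replicate 2 or 3, with adjusted p up to 0.10. The call of L1cam was lost in 9 of 15 alternatives, among them without D8 replicate 1 or 3 or D4 replicate 2 or 3, with adjusted p up to 0.20. Rbfox3, the gene of the NeuN antigen, was not called, at 4.18, 3.66 and 3.61 FPKM on D8, against 2.27, 1.77 and 1.32 FPKM on D4 (log2 change 0.80 ± 0.26, adjusted p = 0.13). Its limma adjusted p was 0.0078 with the 6 libraries fitted alone with pairing.

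The peptide secretory pathway held the largest single rise. Vip, vasoactive intestinal peptide (chromosome 10, 5639193 to 5647617), rose to 102, 174 and 122 FPKM on D8, against 22.2, 7.02 and 5.91 FPKM on D4 (log2 change 3.58 ± 0.69, adjusted p = 0.0077), with the lowest D8 library above the highest D4 library, which was replicate 1. Of 24 tested neuropeptides it was the only one called higher, and the median change was 0.44. Adrenomedullin (Adm), at 2.01, 1.74 and 1.87 FPKM on D8, against 6.06, 14.5 and 8.55 FPKM on D4 (log2 change -1.82 ± 0.31, adjusted p = 0.0035), and the natriuretic peptide Nppb, at 3.01, 0.897 and 1.18 FPKM on D8, against 6.67, 14.6 and 4.97 FPKM on D4 (log2 change -1.81 ± 0.37, adjusted p = 0.013), fell. Adm lost the call with a pseudocount of 0.1 and in no other alternative, and that of Nppb was lost in 4 of 14 alternatives, among them without D8 replicate 2 or 3 or D4 replicate 2, with adjusted p up to 0.072. Among 25 tested granins and prohormone-processing genes 3 rose and 1 fell, with a median change of 0.32. The number higher was 6 with pairing by replicate number, 7 with the 6 libraries fitted alone with pairing, and 5 without D4 replicate 1. Pcsk2, a convertase that cleaves prohormones, was at 20.04, 21.9 and 14.6 FPKM on D8, against 6.14, 6.09 and 4.13 FPKM on D4 (log2 change 1.62 ± 0.26, adjusted p = 0.0023), and Resp18, a granule protein, at 173, 154 and 119 FPKM on D8, against 39.0, 27.1 and 40.0 FPKM on D4 (log2 change 2.04 ± 0.37, adjusted p = 0.0049). Those 2 calls held throughout. Chromogranin B (Chgb) averaged 129 FPKM on D8 and 42.0 FPKM on D4 (log2 change 1.53 ± 0.38, adjusted p = 0.038). The call of Chgb was lost in 9 of 15 alternatives, among them without D8 replicate 1 or 2 or D4 replicate 1, 2 or 3, with adjusted p up to 0.18. The granule-docking GTPase Rab27b averaged 2.40 FPKM on D8 and 6.42 FPKM on D4 and was the one that fell (log2 change -1.12 ± 0.23, adjusted p = 0.014). The call of Rab27b was lost in 4 of 14 alternatives, without D8 replicate 2 or 3 or D4 replicate 2 or 3, with adjusted p up to 0.084.

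Transmitter identity, receptor and channel lists had 0 to 2 calls each, all higher. Called higher were 8% of GABAergic, 7.14% of glutamatergic, and 2.86% each of postsynaptic and potassium channel genes. The share over all tested genes was 0.537%. In the GABAergic list 2 of 25 tested genes rose and the median change was 0.29. Gabbr1, a subunit of the GABA-B receptor, was at 143, 122 and 147 FPKM on D8, against 66.3, 34.7 and 48.0 FPKM on D4 (log2 change 1.49 ± 0.25, adjusted p = 0.0032), and held throughout. Pvalb, the calcium buffer parvalbumin, was at 11.6, 21.0 and 17.2 FPKM on D8, against 5.80, 6.36 and 2.87 FPKM on D4 (log2 change 1.57 ± 0.31, adjusted p = 0.011). The call of Pvalb was lost in 4 of 15 alternatives, among them without D8 replicate 2 or 3 or D4 replicate 3, with adjusted p up to 0.066. Gad1, which makes GABA, was not called, and its days overlapped at 35.8, 28.0 and 46.9 FPKM on D8, against 34.4, 6.57 and 14.2 FPKM on D4 (log2 change 1.22 ± 0.46, adjusted p = 0.21). With the 6 libraries fitted alone with pairing, Gad1 was called higher (limma adjusted p = 0.020), and 4 genes of the list were. In the glutamatergic list the NMDA receptor subunit Grin1 was the 1 call among 14, at 26.5, 14.02 and 24.3 FPKM on D8, against 12.3, 8.73 and 9.08 FPKM on D4 (log2 change 1.004 ± 0.24, adjusted p = 0.033). The call of Grin1 was lost in 7 of 15 alternatives, among them without D8 replicate 1 or 3 or D4 replicate 2 or 3, with adjusted p up to 0.15. The vesicular glutamate transporter Slc17a7 was not called, at 25.4, 14.1 and 19.8 FPKM on D8, against 18.5, 12.9 and 11.5 FPKM on D4 (log2 change 0.43 ± 0.36, adjusted p = 0.69). Of 35 tested postsynaptic and adhesion genes 1 rose, Cbln4, a secreted synapse organiser (13.3 FPKM on D8 and 3.33 FPKM on D4, log2 change 1.61 ± 0.35, adjusted p = 0.017). The call of Cbln4 was lost in 6 of 15 alternatives, among them without D8 replicate 2 or 3 or D4 replicate 1, 2 or 3, with adjusted p up to 0.089. Of 35 potassium channels 1 rose, with a median change of 0.13 over the list. Of 24 sodium and calcium channels 0 were called by limma and 6 were higher at an unadjusted p under 0.05, with a median change of 0.19.

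Regulators of neuronal fate had 1 or 2 calls per list, all higher. Called were 2.86% of neuronal transcription factors, 6.90% of splicing and RNA-binding regulators and 2.08% of chromatin regulators. The share over all tested genes was 0.537%. Of 35 tested neuronal transcription factors 1 rose: Scrt1, a neural zinc finger repressor (chromosome 15, 76516203 to 76522129), at 62.7, 55.3 and 82.2 FPKM on D8, against 28.4, 13.96 and 19.9 FPKM on D4 (log2 change 1.67 ± 0.24, adjusted p = 0.0011), a call that held throughout. The progenitor factor Sox2 was not called, at 48.0, 58.6 and 45.4 FPKM on D8, against 82.9, 84.5 and 108 FPKM on D4 (log2 change -0.84 ± 0.29, adjusted p = 0.17), nor was Rest, the repressor of neuronal genes, at 12.1, 6.48 and 8.87 FPKM on D8, against 11.4, 9.61 and 9.09 FPKM on D4 (log2 change -0.15 ± 0.28, adjusted p = 0.90). Nes, the intermediate filament of progenitors, averaged 41.0 FPKM on D8 and 51.6 FPKM on D4 and was not called (limma adjusted p = 0.72). Fitted alone with pairing, the 6 libraries gave limma adjusted p of 0.0050 for Sox2, 0.52 for Rest and 0.20 for Nes. Among 29 splicing and RNA-binding regulators 2 rose, the brain-enriched Celf6 at 15.2, 13.6 and 12.6 FPKM on D8, against 5.56, 7.15 and 5.39 FPKM on D4 (log2 change 1.08 ± 0.16, adjusted p = 0.0014), which held throughout, and the neuronal splicing repressor Ptbp2 (12.4 FPKM on D8 and 5.23 FPKM on D4, log2 change 1.09 ± 0.28, adjusted p = 0.047). The call of Ptbp2 was lost in 8 of 15 alternatives, among them without D8 replicate 1 or 2 or D4 replicate 2 or 3, with adjusted p up to 0.21. Of 48 chromatin regulators 1 rose, Actl6b, the subunit of the neuronal BAF complex, at 28.2, 37.5 and 31.6 FPKM on D8, against 12.3, 19.2 and 14.6 FPKM on D4 (log2 change 1.04 ± 0.18, adjusted p = 0.0045). The call of Actl6b was lost in 4 of 15 alternatives: with a pseudocount of 0.1 its limma adjusted p was 0.13, and with equal FPKM totals, without D8 replicate 2 or without D4 replicate 1 its change came under 1.

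Among the signalling lists, that of Wnt held 1 rise (2.78%, against 0.537% of all tested genes) and 2 falls (5.56%, against 1.58%). Sfrp2, a secreted modulator of Wnt (chromosome 3, 83765750 to 83774314), rose to 27.5, 46.1 and 43.9 FPKM on D8, against 7.77, 7.63 and 8.25 FPKM on D4 (log2 change 2.14 ± 0.29, adjusted p = 0.00072). The D4 libraries were nearly equal and all D8 libraries stood well above them, and the call held throughout. It was the 1 of 36 tested Wnt genes to rise; Ccnd1, described above, and Dkk2, a secreted Wnt regulator (0.206 FPKM on D8 and 1.497 FPKM on D4, log2 change -1.02 ± 0.21, adjusted p = 0.011), fell. The call of Dkk2 was lost in 4 of 14 alternatives, among them without D8 replicate 1 or 2 or D4 replicate 2, with adjusted p up to 0.061. Notum, a Wnt list gene chosen after its values were seen, had a log2 change of -2.14 and was not called (limma adjusted p = 0.23). It was called lower with the 6 libraries fitted alone with pairing (limma adjusted p = 0.026). Of 24 Notch genes 1 fell, Nrarp, a feedback inhibitor (2.86 FPKM on D8 and 7.42 FPKM on D4, log2 change -1.06 ± 0.27, adjusted p = 0.039). The call of Nrarp was lost in 8 of 14 alternatives, among them without D8 replicate 1, 2 or 3 or D4 replicate 2 or 3, with adjusted p up to 0.19. Axon guidance gave 0 calls among 50 by limma, with 4 lower at an unadjusted p under 0.05 and a median change of -0.01. Among genes of the largest rises in no list, Ankrd34b, an ankyrin repeat protein, was at 13.1, 13.4 and 21.8 FPKM on D8, against 3.29, 2.005 and 1.57 FPKM on D4 (log2 change 2.38 ± 0.31, adjusted p = 0.00054), and Galnt9, a brain glycosyltransferase, at 17.8, 14.5 and 15.1 FPKM on D8, against 4.94, 4.70 and 3.14 FPKM on D4 (log2 change 1.69 ± 0.19, adjusted p = 0.00013). Both calls held throughout.

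All tested Hox genes had a positive change. Of 39 Hox genes 22 were tested, 5 rose (22.7%) and 0 fell; all 22 had a change above 0, the median change was 0.79, and D8 lay above D4 without overlap for 19 (86.4%, against 11.6% of all tested genes). Of the 22 genes 4 reached 1 FPKM in every D8 and no D4 library, which fixed their direction. Of the other 18, all had a change above 0, 15 did not overlap, and these 18 held all 5 calls. The genes that overlapped were Hoxb6, Hoxc4 and Hoxc12, and pairing by replicate number added Hoxc12 to the calls (limma adjusted p = 0.015 with pairing). Summed over the 39 genes, the level was 135, 149 and 130.5 FPKM in D8 replicates 1, 2 and 3, against 71.6, 54.4 and 54.8 FPKM in D4 replicates 1, 2 and 3. All 22 changes stayed above 0 with libraries scaled to an equal FPKM total and with quantile normalization, where the median was 0.73 and 0.92. The count of calls was 4 without D8 replicate 1.

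Each of the 4 clusters held at least 1 call. Of 11 genes in cluster A 4 were tested, with 1 call and a median change of 0.79; of 10 in cluster B 8 were tested, with 2 calls and a median of 0.83; of 9 in cluster C 6 were tested, with 1 call and a median of 0.88; and of 9 in cluster D 4 were tested, with 1 call and a median of 0.52. Hoxb7 (chromosome 11, 96285604 to 96290163) was at 16.5, 25.2 and 17.3 FPKM on D8, against 7.81, 4.36 and 2.92 FPKM on D4 (log2 change 1.83 ± 0.31, adjusted p = 0.0032). Hoxa7 (chromosome 6, 52215623 to 52218573) was at 3.02, 5.01 and 3.35 FPKM on D8, against 1.37, 0.760 and 0.290 FPKM on D4 (log2 change 1.43 ± 0.24, adjusted p = 0.0029). In both Hoxb7 and Hoxa7 every D8 library was above every D4 library. Hoxa7 shares its locus with the noncoding gene Mira and cannot be told apart from it without strand information. Mira, chosen after its values were seen, was also called higher. The call of Mira was lost in 10 of 14 alternatives, among them with pairing and without D8 replicate 1 or 2 or D4 replicate 1, 2 or 3, with adjusted p up to 0.22. Hoxc10 (chromosome 15, 102966796 to 102971898) was at 6.02, 7.05 and 8.41 FPKM on D8, against 1.77, 2.53 and 2.45 FPKM on D4 (log2 change 1.33 ± 0.23, adjusted p = 0.0038). Hoxd9 (chromosome 2, 74697763 to 74700208) was at 3.95, 4.21 and 4.54 FPKM on D8, against 1.26, 1.48 and 1.27 FPKM on D4 (log2 change 1.16 ± 0.16, adjusted p = 0.00073). The calls of Hoxb7, Hoxa7, Hoxc10 and Hoxd9 held throughout. Hoxb9 (chromosome 11, 96271330 to 96276595) was at 16.03, 17.8 and 13.4 FPKM on D8, against 4.70, 3.58 and 3.22 FPKM on D4 (log2 change 1.79 ± 0.44, adjusted p = 0.033); it had an adjusted p of 0.053 with pairing, and of 0.051 to 0.13 without any 1 of the 6 libraries.

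A further 5 Hox genes had an adjusted p under 0.05 with a change below 1, chosen here after their values were seen. They were Hoxb4 (log2 change 0.79 ± 0.17, adjusted p = 0.018), Hoxa9 (log2 change 0.80 ± 0.19, adjusted p = 0.027), Hoxc9 (log2 change 0.86 ± 0.20, adjusted p = 0.029), Hoxb13 (log2 change 0.88 ± 0.16, adjusted p = 0.0056) and Hoxc13 (log2 change 0.90 ± 0.15, adjusted p = 0.0028). Hoxb13, at the end of its cluster that patterns the tail of the body, was at 11.2, 12.9 and 9.93 FPKM on D8, against 5.64, 5.96 and 5.49 FPKM on D4. Of the 17 Hox genes below the level for a test, 14 had a higher mean on D8, and none exceeded a mean of 1.32 FPKM on D8. Before induction the family was nearly silent: the highest mean of any Hox gene was 0.143 FPKM in D0, where 27 of the 39 had a mean of 0, and 0.269 FPKM in PN.

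**Figure D3:**
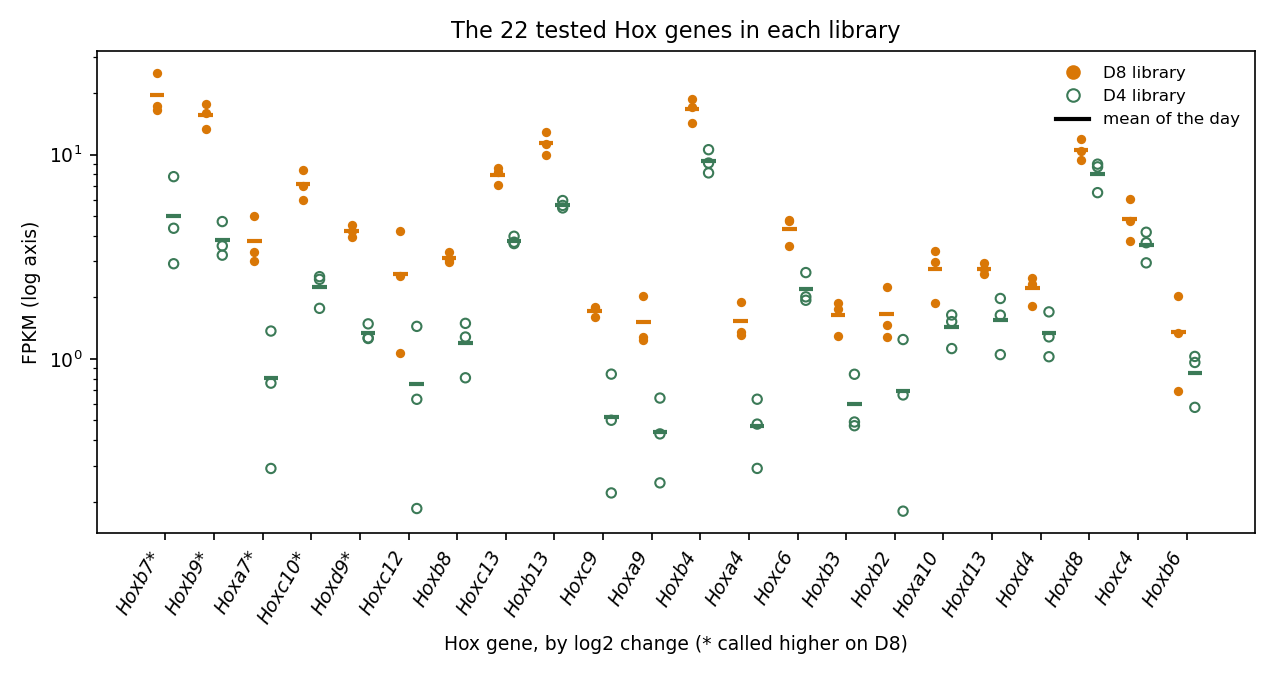
FPKM (vertical axis, log scale) of the 22 tested Hox genes (horizontal axis, ordered by log2 change, called genes starred), 1 point per library and a bar for the mean, with D8 left of D4 for each gene. D8 lies above D4 without overlap for 19 of the 22.

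The lysosome, oxidative phosphorylation, ribosomal protein and glycolysis lists gave 0 calls in either direction by limma. Of 47 tested lysosome and autophagy genes 40 had a change above 0, and D8 lay above D4 without overlap for 25 (53.2%, against 11.6% of all tested genes). The median change was 0.43, and 27 were higher and 1 lower at an unadjusted p under 0.05. Their changes were below the minimum of 1 in all but 1 gene. The 5 with an adjusted p under 0.05 were Hexa, Mcoln1, Sqstm1, Atp6v0d1 and Gaa, the first of which, a subunit of beta-hexosaminidase, was at 197, 256 and 258 FPKM on D8, against 161, 121 and 119.9 FPKM on D4 (log2 change 0.82 ± 0.18, adjusted p = 0.017). Gpnmb, a glycoprotein of stressed lysosomes, had the largest change of the list but a wide error, at 90.7, 63.1 and 67.7 FPKM on D8, against 30.4, 19.4 and 11.2 FPKM on D4 (log2 change 1.90 ± 0.66, adjusted p = 0.17). With the 6 libraries fitted alone with pairing, Gpnmb was called higher (limma adjusted p = 0.00018). Oxidative phosphorylation had a median change of 0.19 over 46 genes, which was 0.11 with equal totals and 0.07 with quantile normalization, and no gene of it was apart between the days or had an unadjusted p under 0.05. Cytosolic ribosomal proteins had a median of 0.17 over 40 genes, with 0 at an unadjusted p under 0.05, and glycolysis one of 0.03 over 24, with 2 lower. In sterol and fatty acid synthesis 1 of 34 fell, the desaturase Scd1 (14.7 FPKM on D8 and 46.9 FPKM on D4, log2 change -1.57 ± 0.32, adjusted p = 0.012). The call of Scd1 was lost in 3 of 15 alternatives, without D8 replicate 2 or D4 replicate 2 or 3, with adjusted p up to 0.072.

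**Figure D4:**
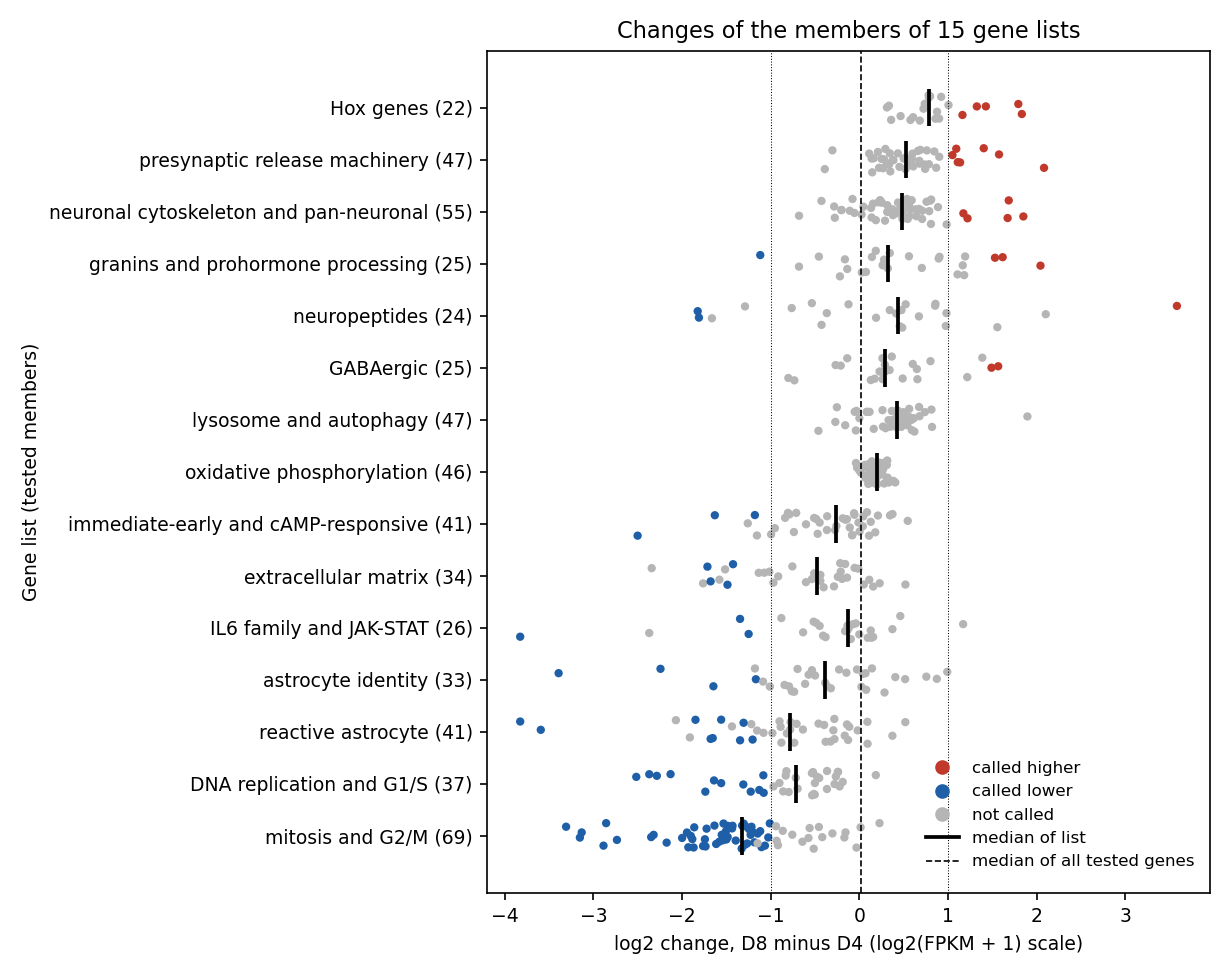
Log2 change (D8 minus D4, horizontal axis) of each tested member of 15 gene lists, with called members in colour, the median of each list as a bar and the median of all tested genes, 0.02, as a dashed line. Medians run from -1.33 for mitosis to 0.79 for the Hox genes.

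The called genes were then followed through all groups, as a description, since D8 and D4 chose them. The 69 genes that rose had a median mean level of 0.204 FPKM in D0, 6.03 in D4, 17.2 in D8, 27.3 in D16 and 13.4 in PN. In D0, 50 of them averaged below 1 FPKM, and in D16 0 did, with 66 at 5 FPKM or more. In PN, 43 reached 5 FPKM while 17 stayed below 1. Vip averaged 697 FPKM in D16 and 1.66 FPKM in PN, and Hoxb9 166 FPKM in D16 and 0.0520 FPKM in PN, whereas Cplx1 averaged 123 FPKM in D16 and 138 FPKM in PN. The 203 genes that fell had a median mean level of 21.5 FPKM in D0, 6.40 in D4, 1.22 in D8, 0.942 in D16 and 2.10 in PN. In D0, 174 of them averaged 5 FPKM or more. In D16, 104 were below 1 FPKM and 24 at 5 FPKM or more.

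**Figure D5:**
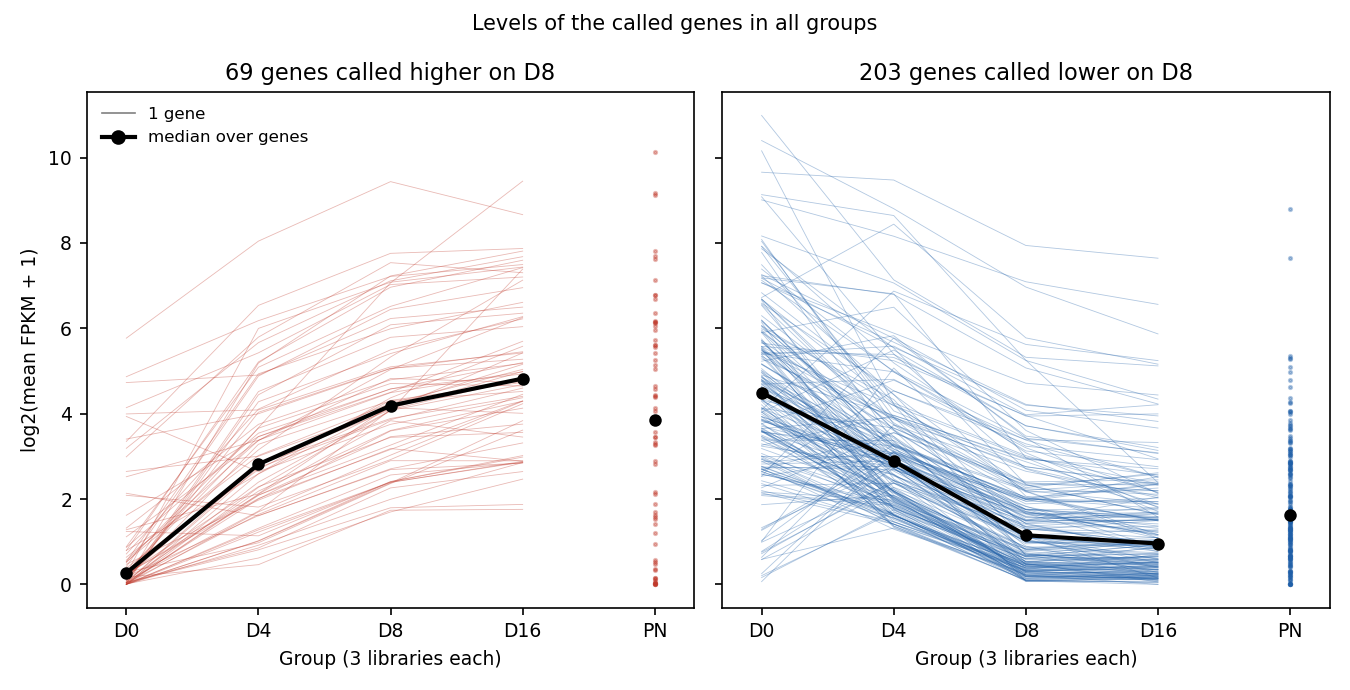
Log2(mean FPKM + 1) (vertical axis) of the 69 genes called higher and the 203 called lower on D8 across D0, D4, D8, D16 and PN, 1 thin line (in PN, 1 point) per gene and a heavy line for the median. The medians of the genes called higher are 0.204 FPKM in D0 and 27.3 FPKM in D16, and those of the genes called lower 21.5 FPKM in D0 and 0.942 FPKM in D16.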

How the data were processed

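The authors deposited 1 table of FPKM per gene and library for 15 libraries, made from total RNA; per the submitters' processing notes the builds were mm10 and GRCm38. Aligner, quantifier and annotation are not given in the sources used here. No counts are given, so depth is relative only: it was estimated from the smallest steps between FPKM values at or under 0.15 of genes shared by 2 libraries (71.9% to 85.4% of ratios within 0.02 log2 units of whole multiples), and no counting interval could be computed.

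From the deposited FPKM, log2(FPKM + 1) was computed and fitted with limma 3.58.1 in R 4.3.3 (group means of all 15 libraries, variance trend, 10 residual degrees of freedom, Benjamini-Hochberg adjustment over 12858 genes). Genes needed 1 FPKM in 3 of the 6 libraries; calls needed an adjusted p under 0.05 and a change of at least 1. Every p in the text is this limma adjusted p unless stated. Tables were handled with Python 3.11.15, numpy 2.4.6, pandas 2.3.3 and scipy 1.17.1, and figures drawn with matplotlib 3.10.9. The procedure was tested on simulated data.

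Genes named were the 12 largest called changes in each direction, up to 6 called genes per list and direction, and a fixed marker panel. The 12 had to be without overlap between the days and to average at least 5 FPKM on the higher day. Others are said to be chosen after their values were seen. Some genes that the rule takes in are not reported here. The comparison and its 43 gene lists were chosen with earlier results of these data known.

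Alternatives were a pseudocount of 0.1, other filters, equal totals, quantile normalization, the 6 libraries alone, no minimum change, each library left out, and replicate number as a block. Whether same-numbered D8 and D4 libraries belong together was checked from their deviations from the group means. These correlated at 0.47, 0.40 and 0.34 for equal numbers and at -0.52 to 0.12 for unequal ones. Deviations from a mean of 3 libraries sum to 0, so the correlations are not independent. Estimated depth was also alike in replicate 2 of D8 and D4 (2.36 and 2.27) and in replicate 3 (0.993 in both). Its part in the correlations was not tested. The main fit was left unpaired, and pairing was an alternative. Promoter windows came from RefSeq (GRCm38.p6). Positions are RefSeq gene spans on that build.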

Additional observations from a re-analysis of the deposited data

How the results depend on the processing

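The number of genes called lower was 203 and stayed within 1.5 times of that under 8 of the 9 other settings kept at the minimum change, the exception being the filter at 5 FPKM (74, where 116 of the 203 were no longer tested). The number called higher was 69, and was 40 with equal FPKM totals, 119 with quantile normalization and 160 without a minimum change; the cause was not tested. Leaving out 1 library at a time gave 41 to 102 genes higher and 129 to 221 lower. With the replicate block, which pairs libraries by replicate number, 78 genes were higher (0.607%) and 206 lower (1.6%). Among the named genes it ended the calls of Ctgf, Hoxb9, Tagln3, Col12a1 and Ltbp1, given above. It changed no other call among the named genes that were called. Hoxc12, Cd40 and Gadd45b, given above, became called with it. Of 82 named genes that were called, 40 kept the call in all of the 15 alternatives that tested them, 42 lost it in at least 1, and 0 reversed. The shift of the median of all genes stayed under 0.1 in both scalings, at -0.05 with equal totals and 0.02 with quantile normalization. The medians of the cell cycle inhibitor, glycolysis and axon guidance lists, 0.04, 0.03 and -0.01, changed sign with scaling. Depth limits genes near 1 FPKM most: the mean of the higher day was under 5 FPKM for 12 of the 69 and 85 of the 203 genes.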

Other observations

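Outside the 43 lists, 38 genes rose and 103 fell on D8, and those named here were chosen after their values were seen. Among those that rose, Slc18a3, the vesicular acetylcholine transporter, was at 15.3, 7.14 and 10.8 FPKM in the D8 libraries, against 5.49, 1.57 and 1.94 FPKM in the D4 libraries (log2 change 1.67 ± 0.31, adjusted p = 0.0070). Slc12a5, the chloride exporter KCC2, was at 32.3, 43.5 and 56.5 FPKM on D8, against 22.3, 10.5 and 15.9 FPKM on D4 (log2 change 1.41 ± 0.32, adjusted p = 0.023). In both genes all D8 libraries lay above all D4 libraries. Slc18a3 kept its call in all 15 alternatives. The call of Slc12a5 was lost in 6 of 15 alternatives, among them without D8 replicate 2 or 3 or D4 replicate 2 or 3, with adjusted p up to 0.14. The abundant lysosomal membrane gene Laptm4b was at 539, 807 and 728 FPKM on D8, against 284, 273 and 229.8 FPKM on D4 (log2 change 1.38 ± 0.16, adjusted p = 0.00021), and kept its call in all 15. Amdhd2, an enzyme that breaks down N-acetylglucosamine, averaged 74.0 FPKM on D8 and 28.9 FPKM on D4 (log2 change 1.28 ± 0.28, adjusted p = 0.017), and the endopeptidase-like Ecel1 90.4 FPKM on D8 and 33.0 FPKM on D4 (log2 change 1.43 ± 0.33, adjusted p = 0.023). The call of Amdhd2 was lost in 5 of 15 alternatives, without D8 replicate 2 or 3 or D4 replicate 1, 2 or 3, with adjusted p up to 0.090. That of Ecel1 was lost in 8 of 15 alternatives, among them without D8 replicate 1, 2 or 3 or D4 replicate 2 or 3, with adjusted p up to 0.11.

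Among those that fell, the histone chaperone Asf1b averaged 1.68 FPKM on D8 and 10.03 FPKM on D4 (log2 change -1.99 ± 0.32, adjusted p = 0.0022), a call kept in all 15 alternatives. The repair genes Brca1 and Fanci and the centromere genes Cenph, Cenpi, Cenpn and Cenpp also fell. The call of Cenpp was lost in 3 of 15 alternatives, without D8 replicate 2 or 3 or D4 replicate 2, with adjusted p up to 0.096. The call of Cenpi was lost in 1 of 14 alternatives, without D4 replicate 2. Among abundant genes, the cyclin Ccnd2 was at 143, 119 and 143 FPKM on D8, against 287, 286 and 279.8 FPKM on D4 (log2 change -1.07 ± 0.20, adjusted p = 0.0064), and the alpha tubulin Tuba1b, which shares sequence with Tuba1a, at 171, 271 and 292 FPKM on D8, against 692, 355 and 1081 FPKM on D4 (log2 change -1.43 ± 0.34, adjusted p = 0.027). Ccnd2 lost its call in 1 of 15 alternatives, without D8 replicate 2. The call of Tuba1b was lost in 7 of 15 alternatives, among them without D8 replicate 1, 2 or 3 or D4 replicate 1 or 3, with adjusted p up to 0.14. Imprinted noncoding RNAs were among them: H19 averaged 0.774 FPKM on D8 and 6.48 FPKM on D4 (log2 change -2.04 ± 0.38, adjusted p = 0.0067), and Rian 48.2 FPKM on D8 and 116 FPKM on D4 (log2 change -1.23 ± 0.25, adjusted p = 0.012). H19 kept its call in the 14 alternatives that tested it, and that of Rian was lost in 3 of 15 alternatives, without D8 replicate 1 or D4 replicate 2 or 3, with adjusted p up to 0.072. The actin crosslinker Flnc averaged 7.74 FPKM on D8 and 30.5 FPKM on D4 (log2 change -1.96 ± 0.36, adjusted p = 0.0056) and lost its call with a pseudocount of 0.1 and in no other alternative.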
